A study of Mus musculus with 5 samples.

Results

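The potassium channel genes of the mouse were described here in neural stem and precursor cells of the subventricular zone, the neurogenic layer that lines the lateral ventricles in the adult mouse brain. Members were taken by gene name: every gene whose symbol starts with Kcn followed by subfamily letters and a number, apart from symbols ending in os, ot1 or -ps. This gave 95 genes of 46078, of which 93 are protein-coding and 2 are antisense RNAs. The cells came from C57BL/6 mice (C57BL/6j in the methods of the study) that the labels give as female, without mutation and 5 to 8 weeks old, while the methods of the study give an older adult age. They were grown undifferentiated on poly-D-lysine-coated plates and received PBS as a sham exposure, which every library shares. RNA was taken after 1 h in 2 libraries (replicates 1 and 2) and after 8 h in 3 libraries (replicates 13, 14 and 15), and in the methods of the study 1 replicate is 1 animal. Libraries of cells exposed to hydrogen peroxide, from the same project, were not analysed here. Levels are given as TPM, the abundance of a transcript scaled by gene length and library depth, so levels of different genes can be compared.

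Potassium channels let potassium ions pass selectively through the cell membrane and thereby set the resting potential and shape electrical signals. They fall into inward rectifiers, tandem-pore (K2P) leak channels, voltage-gated channels, channels opened by intracellular calcium or sodium, silent subunits that only work when joined to another voltage-gated subunit, and accessory subunits that form no pore. In the adult brain, astrocytes and the related stem cells of the subventricular zone are known for a strongly negative resting potential, carried largely by inward rectifier and leak channels, whereas most voltage-gated members are best known from neurons.

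What the pore-forming members share is the potassium channel signature sequence, the stretch of the pore loop that lines the selectivity filter. It was searched for as threonine or serine, any residue, glycine, then tyrosine, phenylalanine or leucine, then glycine. This pattern was found in the translated coding sequence of 77 of 77 pore-forming members, silent subunits included, and in 0 of 16 accessory subunits. Among protein-coding genes, 1159 of 21901 (5.29%) held it. All 14 K2P genes held 2 copies, which is what gives the class its name. In Kcnk1, Kcnk6 and Kcnk7 the second copy matched with leucine. Among voltage-gated members, Kcna6 and Kcnh2 held a second match outside the filter, in both cases with leucine. Coding sequence around the filter is shown for 10 of the members on which the comparisons turn, 39 bases each from the GENCODE annotation of GRCm38, read 5′ to 3′ on the coding strand, with the 5 codons of the signature in capitals. For K2P genes the second filter is shown, because it lies within 1 exon.
Kcnj9, chr1:172326172-172326210, minus strand: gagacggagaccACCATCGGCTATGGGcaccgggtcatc
Kcnk1, chr8:126025317-126025355, plus strand: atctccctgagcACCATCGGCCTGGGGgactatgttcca
Kcnk2, chr1:189256569-189256607, minus strand: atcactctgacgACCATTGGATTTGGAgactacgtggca
Kcnk3, chr5:30622190-30622228, plus strand: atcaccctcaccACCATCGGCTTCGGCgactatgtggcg
Kcnk9, chr15:72512707-72512745, minus strand: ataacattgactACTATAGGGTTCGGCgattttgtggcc
Kcna2, chr3:107105212-107105250, plus strand: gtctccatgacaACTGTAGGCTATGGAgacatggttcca
Kcnc1, chr7:46427961-46427999, plus strand: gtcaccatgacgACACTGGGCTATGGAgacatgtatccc
Kcnh2, chr5:24325543-24325581, minus strand: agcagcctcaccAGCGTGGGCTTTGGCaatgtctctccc
Kcnma1, chr14:23528401-23528439, minus strand: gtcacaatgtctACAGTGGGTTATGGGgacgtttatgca
Kcnt1, chr2:25894355-25894393, plus strand: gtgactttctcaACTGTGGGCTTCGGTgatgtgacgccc

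Before the levels, the libraries need a word. Their identifiers in the labels fall into 2 number series, with both 1 h libraries and 8 h replicate 14 in series 1 and 8 h replicates 13 and 15 in series 2. The meaning of the series was not given in the sources used here. Names of the 8 h count columns and TPM tables disagreed, as given below, so the series of an 8 h TPM table rests on its deposited name. Series 1 libraries go against their label as female: Xist was at 0.0285 to 0.0611 TPM and 4 Y-linked genes summed to 138 to 181 TPM, whereas in series 2 Xist was at 165 and 199.7 TPM and the Y-linked genes at no more than 0.0253 TPM. Mitochondrially encoded genes took 10.7 to 11.1% of TPM in series 1 and 6.23 and 6.30% in series 2. Series, these marks and, apart from 8 h replicate 14, exposure time cannot be told apart. Of the stem and precursor markers of the labelled cell type, 7 of 7 had a mean of at least 1 TPM. Among them were Fabp7 at 7679 to 10076 TPM and Nes at 690 to 784 TPM. The same limit was reached by 6 of 6 neuronal, 5 of 5 oligodendrocyte precursor and 4 of 5 astrocyte markers. It therefore does not set the labelled cell type apart from these types. Of the microglial markers, 0 of 5 reached it. In the deposited count table, which lists 16 of the 95 members, the column totals were 13988166 to 18572154 reads.

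Of the 95 members, 39 had a mean level of at least 1 TPM over the 5 libraries and 13 of at least 10 TPM, while 38 were under 0.1 TPM and 10 were listed at 0 in every library. The levels were uneven: the top 5 members, Kcnj10, Kcnc1, Kcnip3, Kcnk2 and Kcnj16, held 60.7% of the summed member TPM and the top 10 held 79.5%. Kcnt1 (mean 1.17 TPM) and Kcnn1 (1.03 TPM) lay just inside the limit of 1 TPM, and Kcnn2 (0.686 TPM) and Kcnj9 (0.669 TPM) just outside it. The members summed at 1 h to 614 and 683 TPM and at 8 h to 858 (replicate 13), 587 (replicate 14) and 923 TPM (replicate 15). The 8 h libraries thus lay on both sides of the 1 h libraries, with replicate 14 lowest of all 5.

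**Figure D1:**
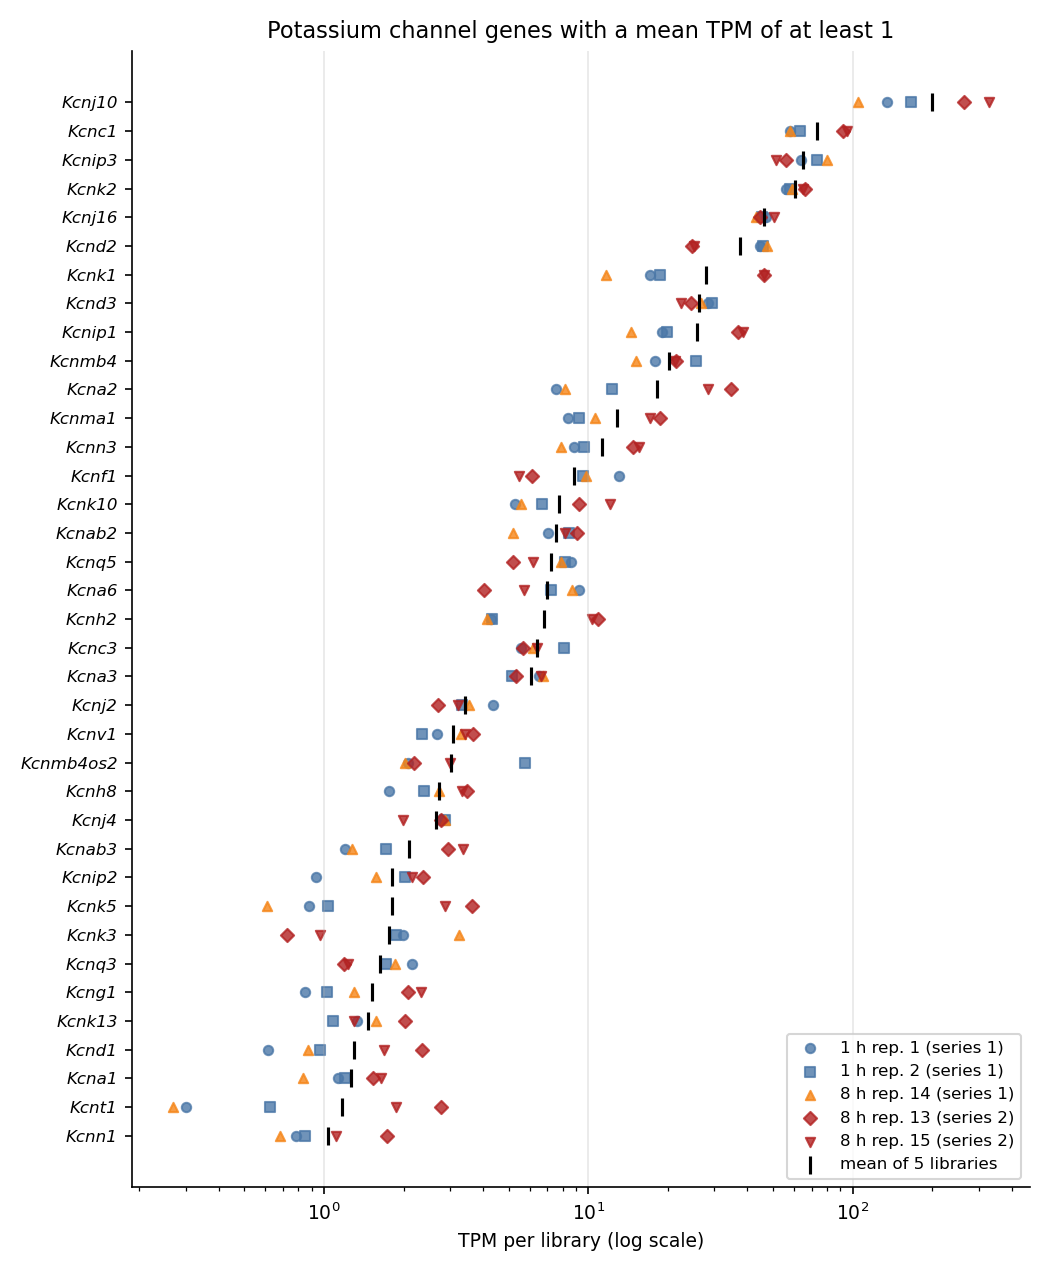
TPM of 37 of the 39 potassium channel genes with a mean of at least 1 TPM (log axis), 1 line per gene, ordered by the mean of the 5 libraries (black tick); circles and squares are the 1 h libraries, triangles pointing up 8 h replicate 14, and diamonds and triangles pointing down 8 h replicates 13 and 15. Kcnj10 leads in every library, and for several genes, such as Kcnk1 and Kcna2, the 2 red series 2 libraries stand apart from the other 3.

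The question set by the labels is whether the members differed between 1 h and 8 h of sham exposure. A gene was called where limma, fitted on log2(TPM + 1) over all 13870 genes with a mean of at least 1 TPM, gave a Benjamini-Hochberg adjusted p of at most 0.05 and a log2 fold change beyond 1 in either direction. Between 8 h and 1 h, 0 of the 39 members tested were called, against a background of 6 of 13870 genes (0.0433%), and their limma adjusted p ran from 0.375 to 0.975. At an unadjusted p of at most 0.05 stood 2 members, both higher at 8 h, against 12.3% of all genes tested and 9.52% in that direction. These were Kcnma1, the pore of the large-conductance calcium-activated channel, and Kcng1, a silent subunit. Kcnma1 was at 8.37 and 9.20 TPM at 1 h and at 18.7, 10.6 and 17.2 TPM in 8 h replicates 13, 14 and 15, a log2 fold change 0.72 ± 0.25 above 1 h (SE; limma adjusted p = 0.375). Kcng1 was at 0.844 and 1.03 TPM at 1 h and at 2.07, 1.30 and 2.32 TPM at 8 h, a log2 fold change 0.57 ± 0.23 above 1 h (SE; limma adjusted p = 0.403). For both, every 8 h library lay above every 1 h library, with replicate 14 the nearest to the 1 h values. The 1 h and 8 h libraries did not overlap for 8 of the 39 members, 6 higher and 2 lower at 8 h, against 33.1% of all genes tested (23.7% higher and 9.43% lower).

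This comparison rested on replicate 14. The median log2 fold change of the tested members was 0.23, against 0.10 over all genes. Adding the series as a term turned it to −0.083, and it stood at −0.073 among the series 1 libraries alone. Both of these set 1 library, replicate 14, against the 2 libraries at 1 h. With the series as a term 0 of 39 members were called (background 0.137%) and 4 had an unadjusted p of at most 0.05, each lower in replicate 14 than at 1 h (background 4.08%): Kcnj10, Kcnk1, Kcnip1 and the accessory subunit Kcnab2. Over all 5 libraries with no other term, the first 3 had the opposite sign, with log2 fold changes of 0.48, 0.69 and 0.48 against −0.51, −0.57 and −0.39. Without replicate 14, when the split by time is also the split by series, 5 of 39 members were called, each higher at 8 h (background 3% of genes): Kcna2, Kcnh2, Kcnk1, Kcnk5 and Kcnt1. In either direction, 4.12% of all genes were called in that fit. Kcnk5 and Kcnt1, with 1 h means of 0.954 and 0.461 TPM, passed the limit on low values there through replicates 13 and 15.

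Between the identifier series, with time as a term in the same fit, 8 of the 39 tested members were called, against 4.02% of all genes. Because both 1 h libraries are in series 1, time as a term leaves only the 8 h libraries to estimate this difference: each log2 difference between series given here is the mean of 8 h replicates 13 and 15 minus replicate 14 alone, a single library assumed to vary like the others. The 7 higher in series 2 were Kcnk1, Kcna2, Kcnj10, Kcnk5, Kcnt1, Kcnip1 and Kcnh2, and the 1 lower was Kcnk3. With median-ratio scaling of the libraries 6 were called higher and 2 lower (316 and 119 of all genes, against 462 and 96 as deposited). The calls depended on both series 2 libraries: without 8 h replicate 13 or without 8 h replicate 15, fewer members and fewer of all genes were called. By limma without the filter on low values 0 of 85 members were called, and 29 had an unadjusted p of at most 0.05 (4642 of 23583 genes). Among all genes tested, 3.33% were called higher and 0.692% lower. The call for Kcnk5 and Kcnt1 concerns genes whose series 1 mean was under 1 TPM, and that for Kcnk3 one whose series 2 mean was, so that each passed the limit on low values through the series in which it was high. Of the 34 members with both series means at or above 1 TPM, 5 were called. No share over all genes was taken at this stricter limit, so this count cannot be set against a background. Kcnd2, Kcnn3, Kcnc1 and Kcnma1 had an adjusted p of at most 0.05 with a log2 difference within 1, which made 12 of 39 members at that adjusted p without regard to size, against 9.09% of all genes. The median log2 difference of the tested members was 0.36, against 0.11 over all genes. The libraries of the series did not overlap for 31 of 39 members, 22 higher and 9 lower in series 2, against 53.3% of all genes tested (39.8% higher and 13.5% lower). Of these members, Kcnd1 and Kcnn1, like Kcnk5, Kcnt1 and Kcnk3, passed the limit on low values through the series in which they were high. Among the 8 h libraries alone, 9 of 40 members were called, against 4.7% of genes: the same 8 and Kcnk9. That fit again sets 2 libraries against 1, and Kcnk9, listed at 0 in replicate 14, passed the limit on low values through replicates 13 and 15.

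**Figure D2:**
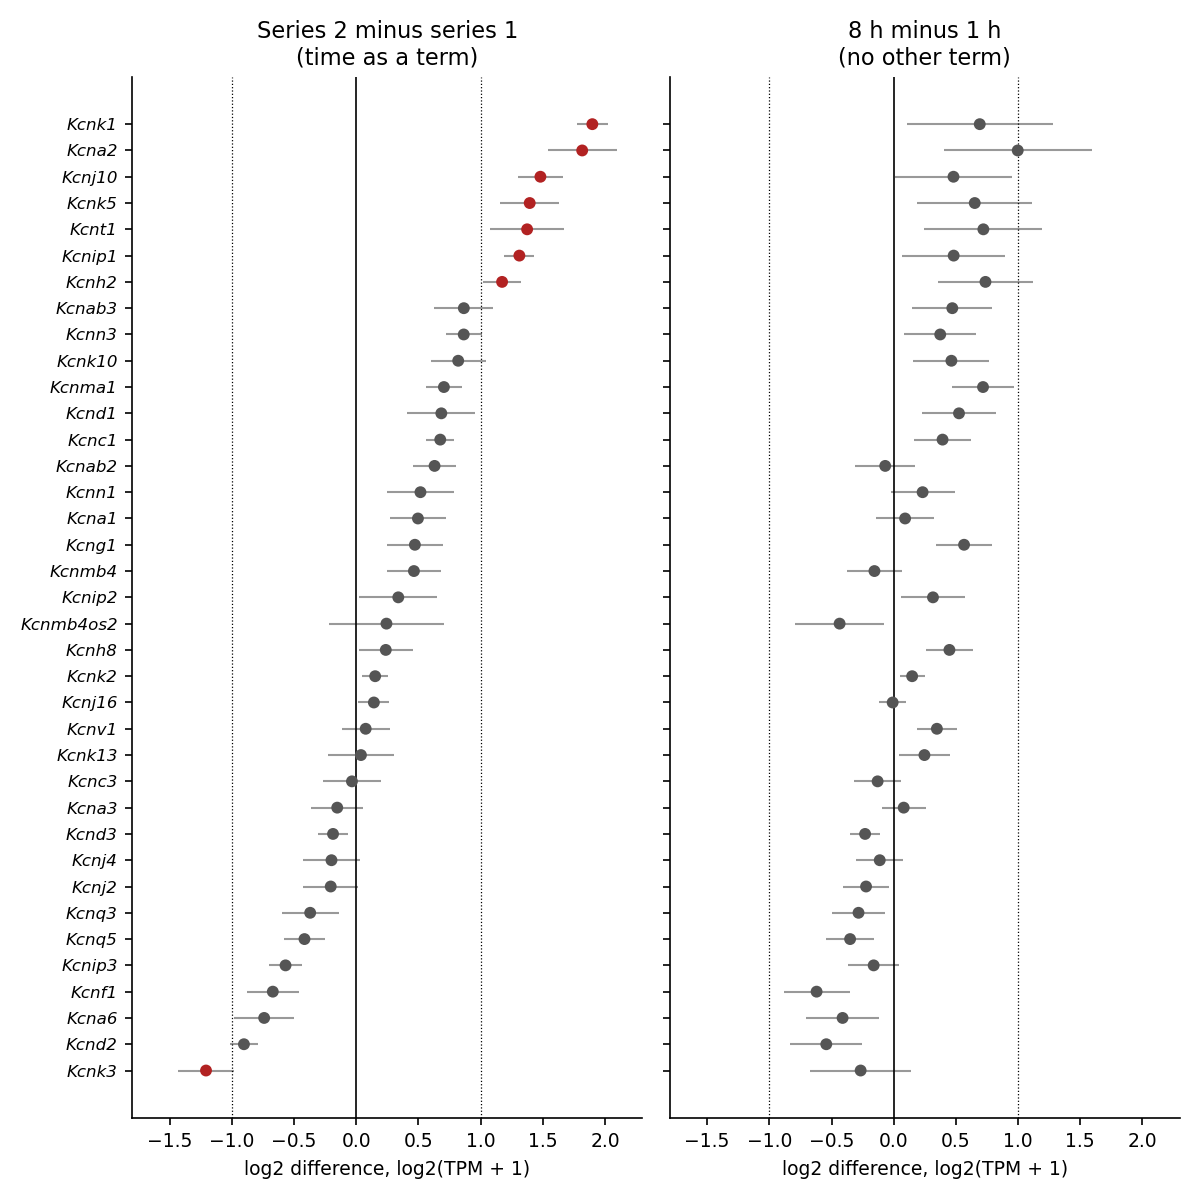
Log2 difference of log2(TPM + 1) for 37 of the 39 tested members, with standard errors as horizontal bars, between identifier series with time as a term (left; 8 h replicates 13 and 15 minus replicate 14) and between 8 h and 1 h with no other term (right); dotted lines mark a difference of 1 in either direction. The 8 red points on the left are the called members, from Kcnk3 at −1.21 to Kcnk1 at 1.90, and no member was called on the right, where the standard errors of the same genes are wider.

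Markers of several cell types moved with the series. The 7 stem and precursor genes of the labelled cell type summed to 11245 to 11761 TPM in series 1, most of it Fabp7. In series 2 they summed to 13332 and 14418 TPM. Of these genes 0 were called, and their log2 differences between series ran from −0.18 (Nes) to 0.70 (Slc1a3). Of 5 astrocyte genes, some of which stem cells of this region also express, Gfap, Aqp4 and Slc1a2 were called higher in series 2, Gja1 was higher by less than the fold limit allows, and Gjb6 was listed at 0 in every library. The list summed to 125 to 132 TPM in series 1 and to 278 and 343 TPM in series 2. The mural list, which shares Cspg4 with the oligodendrocyte precursor list, summed to 110 to 153 TPM in series 1 and to 34.3 and 36.2 TPM in series 2. Most of it in series 1 was Acta2 (75.8 to 114 TPM), which was at 11.2 and 15.8 TPM in series 2. There the larger part was Cspg4 (22.6 and 19.8 TPM). The pericyte genes Pdgfrb and Rgs5 stayed under 0.5 TPM in every library. The 4 myelin genes summed to 113 to 164 TPM in series 1 and to 35.5 and 69.1 TPM in series 2, with Mbp called lower. Among 6 neuronal genes Syt1 was called lower in series 2 and Tubb3 had lower levels there (19.0 and 19.3 TPM against 37.4 to 42.9 TPM), Snap25 had higher ones (13.0 and 15.8 TPM against 10.3 to 10.8 TPM), and the median log2 difference of the list was 0.053. None of the 5 microglial genes reached a mean of 1 TPM, and of 5 endothelial genes Cldn5 was listed at 0 in every library while Flt1 was at 9.71 to 13.6 TPM in both series. The ependymal genes summed to 17.2 to 28.3 TPM in series 1 and to 16.6 and 19.7 TPM in series 2, and the oligodendrocyte precursor genes to 1531 to 2168 TPM and to 2113 and 2400 TPM. In bulk RNA, fewer cells of a type and less RNA per cell cannot be told apart, and the part of these markers in the differences of the channel genes was not tested.

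Inward rectifiers, which pass potassium more readily into the cell than out of it, made up 34.6% of the summed member TPM with only 4 of 15 genes at or above 1 TPM. Kcnj10, the Kir4.1 channel of glia that takes up potassium released by neurons, was at 135 and 166 TPM in the 1 h libraries, at 105 TPM in 8 h replicate 14 and at 265 and 328 TPM in 8 h replicates 13 and 15. The series 2 libraries lay above all others, and replicate 14 lay below the 1 h libraries. The 1 h mean was 150.4 ± 22.2 TPM (SD, n = 2), and the 8 h mean was 233 ± 115 TPM (SD, n = 3). Between series the log2 difference was 1.48 ± 0.18 (SE; limma adjusted p = 0.0117). Kcnj10 alone held 17.9 to 24.3% of the summed member TPM in series 1 and 30.9 and 35.6% in series 2. Without it, the members summed to 479 to 516 TPM in series 1 and to 593 and 595 TPM in series 2, so the series still did not overlap.

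Kcnj16, the Kir5.1 subunit that pairs with Kir4.1, stood at 47.1 and 45.5 TPM at 1 h, at 43.0 TPM in replicate 14 and at 44.8 and 50.5 TPM in replicates 13 and 15. Its libraries overlapped between times and between series, and the log2 difference between series was 0.14 ± 0.13 (SE; limma adjusted p = 0.526). The classical strong rectifiers Kcnj2 (2.69 to 4.35 TPM) and Kcnj4 (2.00 to 2.86 TPM) followed at far lower levels. Kcnj2 is the neighbour of Kcnj16, 38.2 kb away on chromosome 11.

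Kcnj9, a G-protein-gated rectifier subunit, lies 11.9 kb from Kcnj10 on chromosome 1, on the opposite strand. It was at 1.11 and 0.878 TPM at 1 h, at 0.985 TPM in replicate 14, and at 0.130 and 0.243 TPM in replicates 13 and 15. Series 2 was thus lower, the reverse of the order of Kcnj10, with means of 0.991 TPM in series 1 and 0.187 TPM in series 2. With a mean of 0.669 TPM it was not tested. Kcnj8 and Kcnj11, the pores of ATP-sensitive channels, were at no more than 0.153 and 0.485 TPM, and their obligate partners Abcc8 and Abcc9, the sulfonylurea receptors, at no more than 0.0280 TPM.

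**Figure D3:**
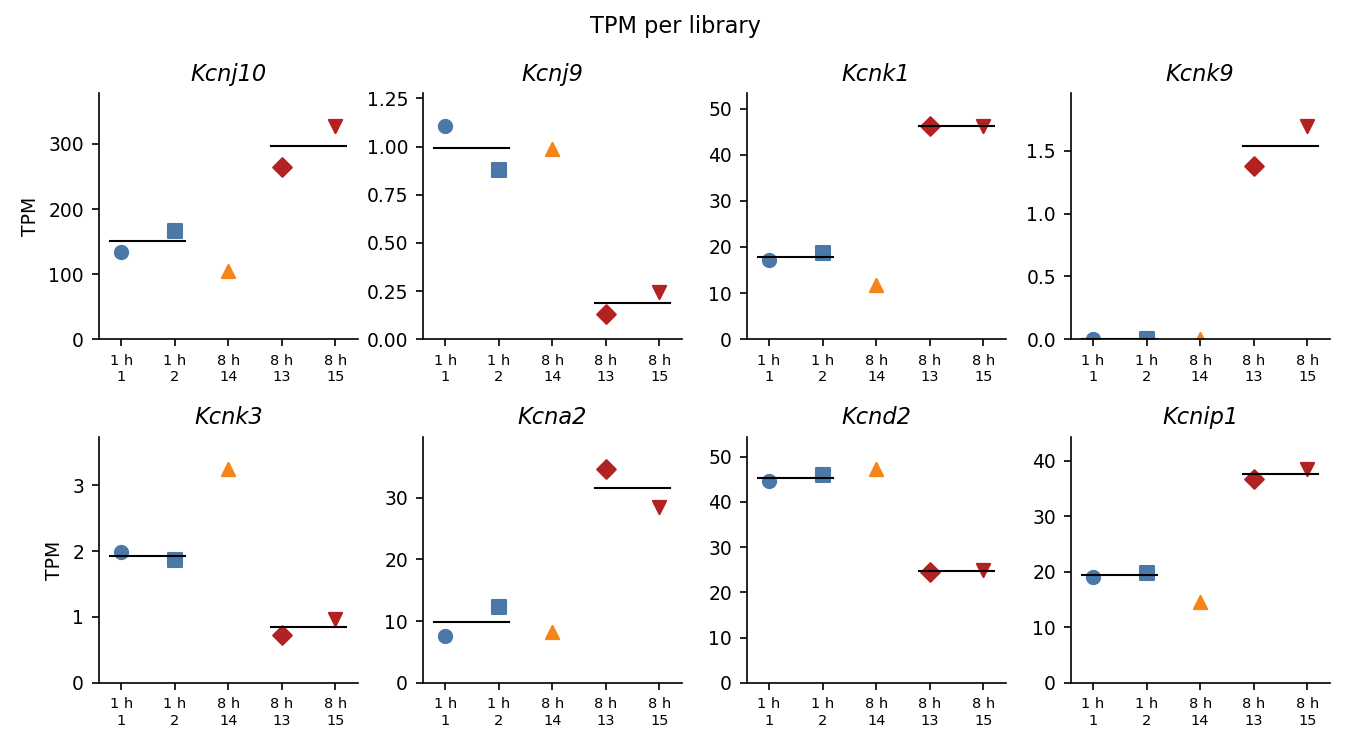
TPM of 8 members in each library, each panel with its own linear axis from 0; black lines are the means of both 1 h libraries (left) and of 8 h replicates 13 and 15 (right), and the orange triangle is 8 h replicate 14. In all 8 panels replicate 14 sits nearer to the 1 h libraries than to the other 8 h libraries; Kcnj10, Kcnk1, Kcnk9, Kcna2 and Kcnip1 are higher and Kcnj9, Kcnk3 and Kcnd2 lower in replicates 13 and 15.

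K2P leak channels carry the steady outward potassium current that holds cells near the potassium equilibrium, and 6 of 14 reached 1 TPM. Kcnk2 (TREK-1, a mechanically and lipid-gated leak channel) varied little, at 56.0 and 57.8 TPM at 1 h and at 65.8, 58.8 and 65.1 TPM in 8 h replicates 13, 14 and 15. Its 8 h libraries all lay above the 1 h libraries, with a log2 fold change at 0.15 ± 0.10 (SE; limma adjusted p = 0.509). Its relative Kcnk10 (TREK-2) ran from 5.30 to 6.67 TPM in series 1 and reached 9.24 and 12.1 TPM in series 2, a log2 difference of 0.82 ± 0.22 (SE; limma adjusted p = 0.0782).

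Kcnk1, the weakly inward rectifying leak channel TWIK-1, had the smallest p of all tested members between series. It was at 17.1 and 18.6 TPM at 1 h, at 11.7 TPM in replicate 14, and at 46.3 and 46.1 TPM in replicates 13 and 15. The 2 series 2 libraries were nearly equal, at 2.93 times the mean of all 3 series 1 libraries and 3.96 times replicate 14, and replicate 14 lay below both 1 h libraries. The fitted log2 difference, taken against replicate 14, was 1.90 ± 0.12 (SE; limma adjusted p = 0.00462). Kcnk5 (TASK-2, opened by alkaline pH) was at 0.875 and 1.03 TPM at 1 h, at 0.610 TPM in replicate 14, and at 3.65 and 2.86 TPM in replicates 13 and 15, a log2 difference of 1.39 ± 0.24 (SE; limma adjusted p = 0.0263).

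The acid-sensitive leak channels Kcnk3 (TASK-1) and Kcnk9 (TASK-3), which can join in 1 channel, lay in opposite order. Kcnk3 was at 1.98 and 1.87 TPM at 1 h, at 3.25 TPM in replicate 14, and at 0.724 and 0.962 TPM in replicates 13 and 15, a log2 difference of −1.21 ± 0.22 between series (SE; limma adjusted p = 0.0321). Kcnk9 was listed at 0 in all 3 series 1 libraries and at 1.38 and 1.70 TPM in replicates 13 and 15, so no fold is given, and with a mean of 0.616 TPM it was not tested in the fit over all 5 libraries. For both genes the series did not overlap. Kcnk13 (THIK-1) was at 1.08 to 2.03 TPM with overlapping series, and the other 7 K2P genes were at no more than 0.164 TPM in any library.

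Voltage-gated channels, which open on depolarization, were the largest class with 30 genes, 15 of them at or above 1 TPM, and made up 28.4% of the summed member TPM. Kcnc1, a fast delayed rectifier known from rapidly firing neurons, was at 58.0 and 63.3 TPM at 1 h, at 58.2 TPM in replicate 14 and at 91.9 and 95.2 TPM in replicates 13 and 15. Series 2 lay above every other library, and the log2 difference of 0.68 ± 0.11 (SE; limma adjusted p = 0.0253) was within the fold limit. The A-type channels Kcnd2 and Kcnd3, which inactivate rapidly, had lower levels in both series 2 libraries than in any other. Kcnd2 was at 44.6 and 46.0 TPM at 1 h, at 47.3 TPM in replicate 14, and at 24.6 and 25.0 TPM in replicates 13 and 15, a log2 difference of −0.90 ± 0.11 (SE; limma adjusted p = 0.0123). Kcnd3 was at 28.5 and 29.4 TPM at 1 h and at 24.4, 26.8 and 22.5 TPM in replicates 13, 14 and 15, a log2 difference between series of −0.19 ± 0.12 (SE; limma adjusted p = 0.399). Kcnd2 thus exceeded Kcnd3 in all series 1 libraries, and in series 2 their levels lay close together.

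Kcna2, a low-threshold delayed rectifier of axons, was at 7.57 and 12.3 TPM at 1 h, at 8.19 TPM in replicate 14, and at 34.6 and 28.4 TPM in replicates 13 and 15. The series did not overlap, and the log2 difference was 1.82 ± 0.28 (SE; limma adjusted p = 0.0195). Its neighbours of the same subfamily on chromosome 3 did not share this order: Kcna3, 63.0 kb away, was at 5.15 to 6.71 TPM with overlapping series, and Kcna10, 68.1 kb away, was at no more than 0.0878 TPM. On chromosome 6, Kcna6 was at 7.23 to 9.19 TPM in series 1 and at 4.01 and 5.72 TPM in series 2, a log2 difference of −0.74 ± 0.24 (SE; limma adjusted p = 0.121), Kcna1 was at 0.833 to 1.64 TPM, and Kcna5, whose listed interval overlaps Kcna1 on the same strand, was at no more than 0.0839 TPM, so the division of reads between these 2 genes is uncertain.

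Kcnh2, the ERG channel best known for cardiac repolarization, was at 4.27 and 4.33 TPM at 1 h, at 4.14 TPM in replicate 14 and at 10.8 and 10.3 TPM in replicates 13 and 15. All 3 series 1 libraries were close together and well under series 2, with a log2 difference of 1.17 ± 0.16 (SE; limma adjusted p = 0.0135). Kcnh1 (EAG), often studied in dividing and tumour cells, was at no more than 0.0353 TPM, and Kcnh8 was at 1.76 to 3.46 TPM. Of the subunits of the M current, which restrains repetitive firing, Kcnq5 ran from 5.21 to 8.58 TPM and Kcnq3 from 1.19 to 2.16 TPM. Both were lower in the series 2 libraries than in any other, and neither was called.

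Of the 16 accessory subunits, 6 reached 1 TPM and 1, Kcnip1, was called between series. Kcnip1 and Kcnip3 encode calcium-binding proteins that join the A-type channels, and Kcnip3 is also known as the transcriptional repressor DREAM. Kcnip1 was at 19.1 and 19.8 TPM at 1 h, at 14.6 TPM in replicate 14 and at 36.8 and 38.5 TPM in replicates 13 and 15, a log2 difference of 1.31 ± 0.12 between series (SE; limma adjusted p = 0.00632). Kcnip3 was at 64.0 and 73.6 TPM at 1 h, at 80.0 TPM in replicate 14 and at 56.0 and 51.3 TPM in replicates 13 and 15, a log2 difference of −0.57 ± 0.13 (SE; limma adjusted p = 0.0568). The series overlapped for neither gene, and their levels lay closest together in series 2. The class as a whole varied little, summing to 111 to 132 TPM in the 5 libraries. Kcnip2 was at 0.935 to 2.36 TPM, and Kcnip4 at no more than 0.131 TPM. The listed interval of Kcnip1 contains Kcnmb1 on the opposite strand, which was at no more than 0.251 TPM. Kcnab2 and Kcnab3, beta subunits of the Kcna channels, were at 5.20 to 9.09 and 1.20 to 3.36 TPM. The Kcne genes encode small single-pass subunits that modify gating, and none of the 5 reached a mean of 1 TPM: the highest, Kcne1l, had a mean of 0.635 TPM, and 2 were listed at 0 throughout.

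**Figure D4:**
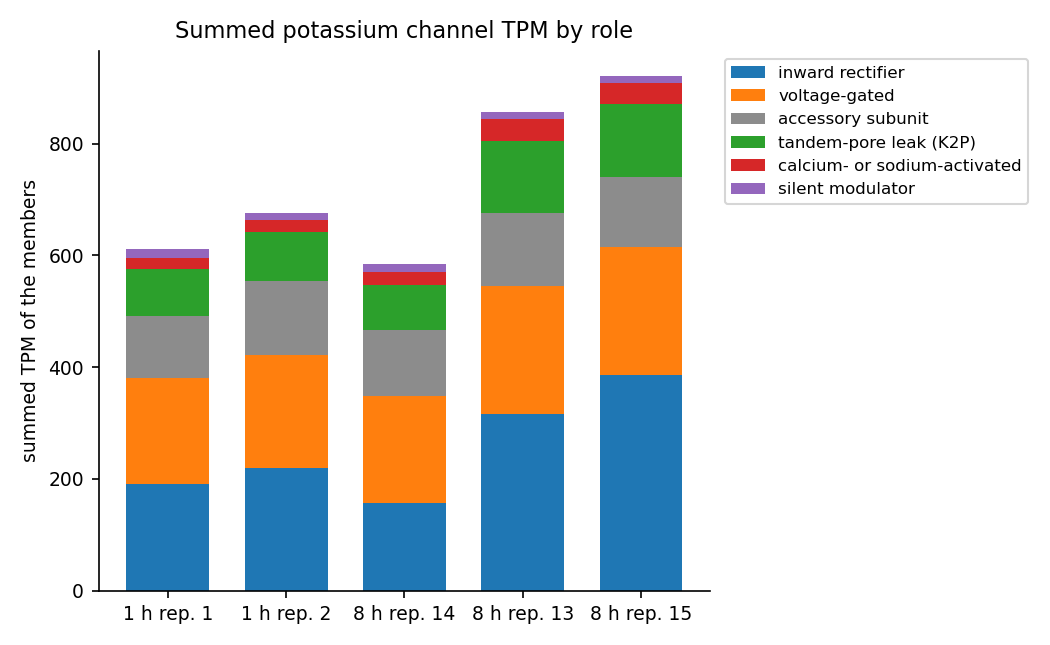
Summed TPM of the member genes by role in each library, as stacked bars from 0, with the series 1 libraries first; the 2 antisense RNAs are left out. The bars for 8 h replicates 13 and 15 are the tallest, and most of their extra height lies in the inward rectifiers (316 and 385 TPM against 157 to 220 TPM) and the K2P channels (129 and 130 TPM against 81.6 to 87.3 TPM), while the accessory subunits differ little.

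Calcium- and sodium-activated channels couple membrane potential to ion entry. All 4 members of this class at or above 1 TPM, of 8, were higher in both series 2 libraries than in any other library, against 39.8% of all genes tested. Kcnt1 and Kcnn1 passed that limit through series 2, their series 1 means being 0.397 and 0.770 TPM. Kcnma1, given above for time, had a log2 difference between series of 0.71 ± 0.15 (SE; limma adjusted p = 0.0418). Its brain-enriched beta subunit Kcnmb4 did not share the order, at 17.9 and 25.5 TPM at 1 h and at 21.5, 15.2 and 21.3 TPM in replicates 13, 14 and 15. Kcnn3, a small-conductance calcium-activated channel, was at 8.80 and 9.61 TPM at 1 h, at 7.86 TPM in replicate 14 and at 14.8 and 15.5 TPM in replicates 13 and 15, a log2 difference of 0.86 ± 0.14 (SE; limma adjusted p = 0.0245). Kcnt1, the sodium-activated channel Slack, was at 0.299 and 0.623 TPM at 1 h, at 0.268 TPM in replicate 14 and at 2.76 and 1.87 TPM in replicates 13 and 15, a log2 difference of 1.37 ± 0.30 (SE; limma adjusted p = 0.0466). Kcnn4, the intermediate-conductance channel of immune and dividing cells, had its highest level in replicate 14 (1.16 TPM) and was at 0.436 to 0.616 TPM in the other libraries. Kcnu1, a channel best known from sperm, had a mean of 0.267 TPM.

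Silent subunits change the gating of the voltage-gated channels they join, and 3 of 10 reached 1 TPM. Kcnf1 was at 13.0 and 9.58 TPM at 1 h and at 6.13, 9.81 and 5.47 TPM in replicates 13, 14 and 15, lower in series 2 with a log2 difference of −0.67 ± 0.21 (SE; limma adjusted p = 0.113). Kcnv1 was at 2.34 to 3.67 TPM, and no Kcns gene exceeded 0.281 TPM in any library. The antisense RNA Kcnmb4os2, which overlaps the start of Kcnmb4 on the opposite strand, was at 2.08 and 5.76 TPM at 1 h and at 2.19, 2.02 and 3.00 TPM in replicates 13, 14 and 15. It was highest in the same library as Kcnmb4, and although the libraries were stranded, the use of strand for these levels was not stated, so the split of reads between the overlapping genes is uncertain. Kcnmb4os1 was above 0 in 1 library only. The remaining neighbouring pairs within 100 kb were near the bottom of the range: Kcnj5 at 0.0743 to 0.211 TPM beside Kcnj1, listed at 0 throughout, Kcne2 at no more than 0.0536 TPM beside Kcne1, also at 0, and Kcnk16, the neighbour of Kcnk5, at no more than 0.0443 TPM.

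The deposited counts gave a coarser view. Over the 7227 genes that reached 50 counts throughout, the 1 h columns matched the TPM tables of the same name within 0.1 on the log2 scale for 77.5% of genes. The column named for 8 h replicate 13 agreed to this extent with its own table at 25.0% of genes and with that of replicate 14 at 78.6%, the column named for replicate 15 matched its own for 41.2% and that of replicate 13 for 78.7%, and the column named for replicate 14 matched no table for more than 39.7%. No column matched the TPM table of replicate 15 for more than 41.2%. Exchanging names would thus still leave this table and the column named for replicate 14 without a close match. The library behind that column is not known, and the count tests below include it. Values of the 8 h count columns are therefore given by column name and not tied to a TPM library. Which of the columns and TPM tables carry wrong names cannot be told from these files. Each statement on 8 h replicates 13, 14 and 15 above therefore holds for the TPM table deposited under that name. The identifier series came from the same labels, and the series 2 column named for replicate 13 matched the replicate 14 table, taken as series 1. Every result between series above thus also rests on the deposited names of the 8 h TPM tables. Between 8 h and 1 h columns, edgeR's quasi-likelihood test called 0 of 16 members and 0 of 7590 genes (0%). At an unadjusted p of at most 0.05 edgeR found 199 genes (2.62%) and 0 members, and DESeq2 227 genes and 0 members. Kcnk1 had 391 and 515 counts in the 1 h columns and 343, 618 and 1296 in the columns named for replicates 13, 14 and 15, a log2 fold change of 0.54 ± 0.49 (SE; edgeR Benjamini-Hochberg adjusted p = 0.966). The 1 h and 8 h columns did not overlap for 2 of 16 members, against 18.7% of genes.

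Potassium channels work beside pumps and cotransporters that move the ion against its gradient. In a list of 36 such genes and channel partners, 22 had a mean of at least 1 TPM, 0 were called between times (background 0.0433%), and 2 were called between series, both higher in series 2 (background 3.33% in that direction). Slc12a7, a potassium-chloride cotransporter, was at 2.86 to 3.31 TPM in series 1 and at 7.15 and 7.43 TPM in series 2, a log2 difference of 1.10 ± 0.17 (SE; limma adjusted p = 0.0209). Partners with high means included the pump subunits Atp1b2 (186 TPM), Atp1b3 (111 TPM) and Atp1b1 (92.1 TPM), the intracellular cation channel Tmem38a (122 TPM), the cotransporter Slc12a4 (93.0 TPM) and the scaffold Dlg4 (75.0 TPM).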

How the data were processed

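RNA-seq was made from 5 libraries, read from both ends after stranded poly-A selection. According to the study's methods and the submitters' processing notes, the authors demultiplexed with bcl2fastq 2.19.1.403, aligned reads to GRCm38 with STAR through nf-core/rnaseq and counted them over Ensembl genes with featureCounts. The tool that wrote the per-library tables was not given in the sources used here. These deposited tables hold read coverage, FPKM and TPM for each gene; TPM, as the authors computed it, was used for levels and tests, and coverage and FPKM only to compare depth. The count table, as deposited, lists whole, unnormalized read counts of 7599 genes, filtered by the authors by a rule not given. The tables keep no read totals, so depth is known only from the count columns, and their names did not match the 8 h TPM tables.

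TPM was summed per gene identifier. limma 3.58.1 with an intensity trend was fitted on log2(TPM + 1) for genes averaging 1 TPM or more, with Benjamini-Hochberg adjustment, on all libraries with time alone and with time and identifier series. Fold changes are on the log2(TPM + 1) scale, which understates changes of low genes. Counts were tested with edgeR 4.0.16 (TMM, filterByExpr, quasi-likelihood) and, as an alternative, DESeq2 1.42.0, in R 4.3.3. Calls needed both an adjusted p up to 0.05 and a log2 fold change beyond 1 in size, the study's thresholds. The fits were tested on simulated data. Coding sequence was taken from the GENCODE annotation of GRCm38 and searched for the signature after translation. Groups and series came from the labels. Members, lists and tests were chosen with earlier results of these data known. Named with values were the 15 highest members, the leading member of each subfamily at or above 0.1 TPM, up to 8 members with the smallest p at or below 0.05 in each TPM comparison, genes set by name beforehand, and neighbours within 100 kb. A few genes and sequences that this rule would name are not reported here. Some others are named where a class is described, and were chosen after their values were seen. Other pseudocounts, filters, scalings and left-out libraries were tried.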

Additional observations from a re-analysis of the deposited data

How the results depend on the processing

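No paired analysis was possible because the 1 h and 8 h groups share no replicate numbers. Between 8 h and 1 h, the median log2 fold change of the tested members was 0.39 with a pseudocount of 0.1, 0.0074 without the filter on low values, −0.083 with the series as a term and −0.073 in series 1 alone, so its direction turned once series was taken into account. Genes called fell to 0 without the filter and rose to 19 with the series as a term. Leaving out each library gave 0 to 573 genes and 0 to 5 members called, the highest of each without 8 h replicate 14. Between series, the median was 0.49 with the pseudocount of 0.1 and 0.050 without the filter, where 0 genes and 0 members were called and the adjusted p of the 8 members ran from 0.0655 to 0.140. The cause was not tested. Without a fold limit 1261 genes were called. Leaving out a library gave 82 to 642 genes and 1 to 8 members: 3 (Kcnip1, Kcnj10, Kcnk1) without 8 h replicate 13 and 1 (Kcnk1) without 8 h replicate 15, each of which sets a single 8 h library against replicate 14 and takes the spread from the 1 h pair. Without 8 h replicate 14 the fit of time and series could not be made. Median-ratio scaling, which moved the median of all genes from 0.11 to −0.0049, lost Kcnt1 and Slc12a7 and gained Kcnd2, and the smaller pseudocount lost Kcnt1. The 8 h libraries alone gave 9 of 40 members, with Kcnk9 added. In the counts, the median of the 16 members was 0.096, and 0.028 to 0.25 with a column left out. With a limit of 5 TPM, 22 members were counted as expressed. Between 8 h and 1 h, 7 members that were positive in the fit over all libraries with no other term turned negative with the series as a term, where 8 h is replicate 14 alone: Kcnj10 (0.48 to −0.51), Kcnk1 (0.69 to −0.57), Kcnip1 (0.48 to −0.39), Kcna2 (1.00 to −0.21), Kcnh2 (0.74 to −0.044), Kcnk5 (0.65 to −0.28) and Kcnt1 (0.72 to −0.20). Series 1 alone gave the same values for the first 5, and Kcnk5 and Kcnt1 were under its limit on low values. Kcnab2 ranged from −0.21 to 0.14 with a library left out. The 8 members called between series kept their direction in every alternative tried in which they were tested. This gives no independent support, because every alternative reuses the difference from replicate 14 by which they were called. Dropping the filter, leaving out a 1 h library or taking the 8 h libraries alone cannot change that difference. The difference of Kcnd3os between series, which was not called, was −0.20 without 8 h replicate 13 and 0.42 without 8 h replicate 15.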

Other observations

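Some genes with Kcn symbols fell outside the naming rule. Kcnd3os, an antisense RNA of Kcnd3, was at 2.53 and 2.59 TPM at 1 h and at 5.38, 3.78 and 3.17 TPM in 8 h replicates 13, 14 and 15, with a log2 difference between series of 0.11 ± 0.28 (SE; limma adjusted p = 0.846). Kcnq1ot1, the imprinted transcript that runs antisense to Kcnq1, had a mean of 0.190 TPM, Kcnab3os was listed at 0 in every library, and Kcnrg, a regulator of channel assembly, had a mean of 0.420 TPM.

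Kcnj12, a strong inward rectifier, and Kcnj13 were listed above 0 in all 3 series 1 libraries (0.133 to 0.191 and 0.0616 to 0.121 TPM) and at 0 in both series 2 libraries, while Kcnj8 was listed at 0 in series 1 and at 0.145 and 0.153 TPM in series 2. Kcnk12 was likewise listed above 0 in all 3 series 1 libraries (0.0412 to 0.158 TPM) and at 0 in both series 2 libraries. These levels lie near the floor and were not tested. No share of all genes with such a split was taken, so it cannot be set against a background.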
